A study of Mus musculus with 12 samples.

Results

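The cerebral cortex of male C57BL/6 mice was compared between animals given a single dose of 10 Gy to the whole brain (IR) and sham-irradiated animals (Con), 3 months after treatment. The 6 cortex libraries, 3 Con and 3 IR, were taken by their tissue label from the 12 libraries of the series. Of the 23183 gene symbols listed in each library, 14065 reached 0.5 FPKM in 3 or more of the 6 cortex libraries, and these were tested. The mice were 7 weeks old at purchase and were acclimatized for 1 week before they were divided into the groups, and the Con animals were handled alike with the beam off. No transgene or drug is named for any group in the sources used here. The sources do not say whether a library is 1 mouse, so the p values measure the spread between these libraries. FPKM scales the sequenced fragments of a gene to transcript length and library size, so levels can be set beside each other between genes.

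Ionizing radiation breaks DNA and activates p53, which switches on the cell cycle inhibitor p21. Neurons that fire switch on immediate early genes (IEGs), transcription factors such as those of the EGR and FOS families, through calcium and ERK kinase signalling, and these in turn drive effectors at the synapse. ERK signalling also induces its own inhibitors, the DUSP phosphatases and the SPRED proteins. The circadian clock is a loop of activators (Clock and Arntl) and repressors (Per and Cry), and the level of its genes changes over the day in every tissue. Misfolded proteins in the cytosol or in the endoplasmic reticulum (ER) induce separate sets of chaperones. Microglia, the macrophages of the brain, depend on the receptor Csf1r for survival.

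The cortex was recognizable in every library. *Slc17a7*, the vesicular glutamate transporter of cortical excitatory neurons, was listed at 505 to 533 FPKM, and *Gad1*, the enzyme that makes GABA in interneurons, at 98.1 to 119 FPKM. *Rasgrf2*, *Fezf2* and *Tle4*, markers of upper layers, layer 5 and layer 6, were at 12.7 to 39.7 FPKM. *Foxp2*, also of layer 6, was at 1.63 to 2.33 FPKM. *Prox1* of the dentate gyrus lay at 1.69 to 2.23 FPKM and *Fibcd1* of the hippocampus at 1.73 to 4.25 FPKM. Of the striatum, *Drd1* was at 1.69 to 2.50 FPKM and *Drd2* at 0.0828 to 0.741 FPKM. The FPKM of a library summed to 359932 to 375488, the correlation of log2(FPKM + 1) between libraries was 0.990 to 0.995, and relative depth, read from the smallest values above 0, was between 1 and 1.05 with Con 1 set to 1. Depth in reads is unknown. The libraries also differed in tissue content. Con 1 and Con 2 were at opposite ends of the Con libraries in markers of layers 2 to 4, summed to 309 and 231 FPKM, and of layer 6, at 171 and 225 FPKM, and IR 1 was lowest in most fibroblast markers. In IR 2, *Ttr*, the transthyretin gene of the choroid plexus, was at 426 FPKM, against 2.75 to 27.4 FPKM in the other libraries. The 6 choroid plexus genes that were tested, of 14 listed, were all highest in IR 2, and their summed level was 460 FPKM there and 5.98 to 35.6 FPKM elsewhere. None of the 6 had an unadjusted p under 0.05, and IR 2 is named below beside the results it touches.

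The adjusted p of limma was under 0.05 for 102 genes (0.725% of the genes tested), of which 79 were higher in IR (0.562%) and 23 lower (0.164%). The 3 IR libraries did not overlap the 3 Con libraries in any of these 102 genes. Over all tested genes the IR libraries lay entirely above Con in 11.2% and entirely below in 9.09% (20.3% without overlap), the mean was higher in IR in 50.5%, the unadjusted p was under 0.05 for 8.16% in the direction of IR and 5.94% in the direction of Con, and the median log2 fold change was 0.00. These shares are the background for every list of genes described here. The number of called genes depended on single libraries: it was 17 without IR 1, 28 without IR 2, 37 without IR 3, 45 without Con 3, 66 without Con 1 and 77 without Con 2. The genes called whichever library was left out numbered 13, and they were *Cdkn1a*, *Ciart*, *Dbp*, *Dnajb5*, *Egr3*, *Etv5*, *Fmnl1*, *Galnt9*, *Homer1*, *Ier5*, *Per2*, *Sbk1* and *Sgsm1*. Of 902 tested members of 55 lists of pathways and cell types, 32 were called, and they fell into 12 of the lists.

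**Figure D1:**
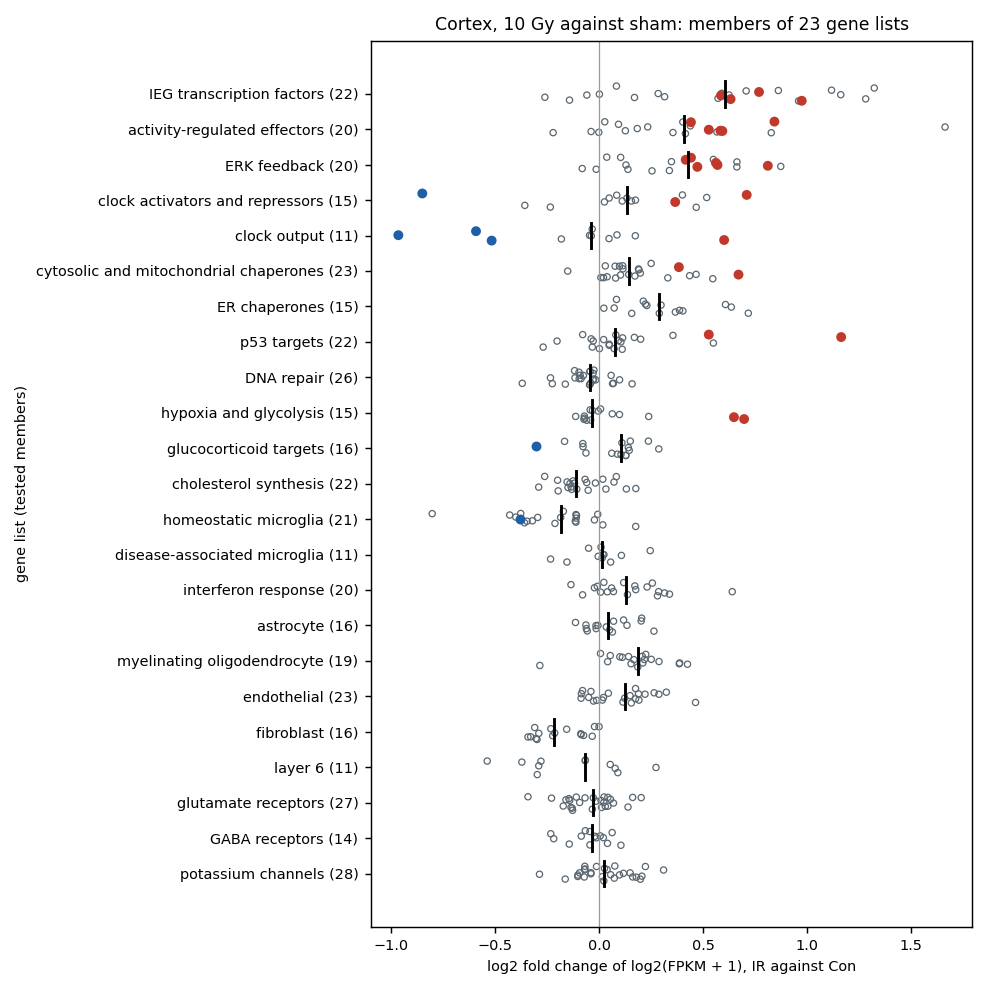
Log2 fold change of IR against Con (x axis, on the log2(FPKM + 1) scale) for the tested members of 23 gene lists (y axis, with the number of tested members). Filled red points are genes called higher in IR, filled blue points genes called lower, open points genes that were not called, and black bars the median of a list. The medians of the IEG transcription factors, the effectors and the ERK feedback genes lie at 0.61, 0.41 and 0.43, and that of the homeostatic microglia genes at -0.19.

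Most IEG transcription factors had a higher mean in the irradiated cortex. Of 25 listed, 22 passed the filter, 19 of these had a higher mean in IR and 3 a lower one, 4 rose, and the unadjusted p was under 0.05 upward in 13 and downward in 1 (*Klf6*). The median log2 fold change was 0.61. *Egr3*, a zinc finger factor of the EGR family, was at 34.2, 35.7 and 37.8 FPKM in Con 1 to 3 and at 75.1, 66.8 and 72.9 FPKM in IR 1 to 3. The libraries of each group lay close together and the groups were far apart. *Egr3* rose 1.96-fold (log2 fold change 0.97, standard error 0.06, adjusted p = 0.000185). *Ier5*, an early response gene that acts on heat shock factor, rose from 30.8 ± 2.36 to 46.7 ± 1.57 FPKM (SD, n = 3, adjusted p = 0.00497 from limma). *Fosb*, a partner of JUN proteins in AP-1, was at 2.71, 3.45 and 3.68 FPKM in Con and 5.70, 5.65 and 7.57 FPKM in IR (log2 fold change 0.77, adjusted p = 0.0303). *Klf4*, a Kruppel-like factor, rose from 1.77 ± 0.126 to 3.31 ± 0.517 FPKM (SD, n = 3, adjusted p = 0.0353 from limma). *Egr3* and *Ier5* were called with every library left out in turn, whereas *Fosb* and *Klf4* were called only with all 6.

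Several of the best known IEGs had a larger fold change than *Egr3* and were not called, and these were chosen for description after their values were seen. *Egr1* was at 49.9, 93.3 and 96.9 FPKM in Con and 152, 161 and 193 FPKM in IR (log2 fold change 1.12, adjusted p = 0.21). *Nr4a1*, an orphan nuclear receptor, was at 19.0, 45.5 and 49.3 FPKM in Con and 71.7, 78.6 and 89.8 FPKM in IR (adjusted p = 0.326). In both genes Con 1 was far below the other Con libraries, and all IR libraries were above all Con libraries. Con 1 was the lowest of the 6 libraries in 15 of the 22 IEG transcription factors, in 12 of 20 effectors and in 12 of 20 ERK feedback genes, and IR 3 was the highest in 17, 11 and 8. Without Con 1 the log2 fold change was 0.81 for *Egr1* (adjusted p = 0.0113) and 0.74 for *Nr4a1* (adjusted p = 0.0118), smaller than with it. Con 1 was the outlying library, and leaving out any of the other 5 gave no call of either gene.

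Of the effectors that activity switches on, 17 had a higher mean in IR and 3 a lower one. All 20 listed were tested, 5 rose, 12 had an unadjusted p under 0.05 upward and none downward, and the median log2 fold change was 0.41. *Homer1*, a scaffold of metabotropic glutamate receptors whose short form is induced by activity, was at 30.1, 26.2 and 30.1 FPKM in Con and 59.4, 49.0 and 49.3 FPKM in IR. It rose 1.79-fold (log2 fold change 0.84, standard error 0.08, adjusted p = 0.004). *Bdnf*, the neurotrophin, rose from 5.12 ± 0.219 to 8.24 ± 0.571 FPKM (SD, n = 3, adjusted p = 0.0106 from limma). *Nptx2*, a secreted pentraxin that clusters AMPA receptors, was at 19.3, 21.8 and 16.4 FPKM in Con and 28.9, 28.4 and 29.8 FPKM in IR (log2 fold change 0.58, adjusted p = 0.0244). *Pcsk1*, a protease that cuts prohormones, rose from 11.6 ± 0.637 to 16.0 ± 0.618 FPKM (SD, n = 3, adjusted p = 0.017 from limma), and *Plk3*, a polo-like kinase, from 5.20 ± 0.635 to 7.92 ± 0.627 FPKM (SD, n = 3, adjusted p = 0.0397 from limma). None of the Con and IR values of these 5 genes overlapped. *Arc*, which governs the uptake of AMPA receptors, had the widest range of the list, chosen for description after its values were seen. It was at 26.4, 73.2 and 86.6 FPKM in Con and 179, 162 and 192 FPKM in IR (log2 fold change 1.66, adjusted p = 0.286), and leaving out Con 1, its outlying library, gave 1.15 (adjusted p = 0.00143), while leaving out any other library gave no call.

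Of the genes of the feedback on ERK, 18 had a higher mean in IR and 2 a lower one. Of these 20 tested members, 6 rose, 13 had an unadjusted p under 0.05 upward and none downward, the IR libraries lay above Con in 14, and the median log2 fold change was 0.43. *Etv5*, an ETS factor downstream of growth factor receptors, was at 26.5, 30.0 and 26.4 FPKM in Con and 41.6, 42.2 and 40.6 FPKM in IR (log2 fold change 0.57, adjusted p = 0.00447), and it was called with every library left out. *Dusp6*, the phosphatase that removes phosphate from ERK in the cytosol, was at 15.6, 20.7 and 22 FPKM in Con and 33.7, 33.6 and 36.3 FPKM in IR (log2 fold change 0.81, adjusted p = 0.0152). The 3 Spred genes, membrane-bound inhibitors of the step from RAS to RAF, rose together. *Spred1* went from 32.2 ± 3.27 to 45.0 ± 3.00 FPKM, *Spred2* from 24.5 ± 2.98 to 33.5 ± 0.461 FPKM and *Spred3* from 12.9 ± 0.979 to 17.5 ± 1.43 FPKM (SD, n = 3), with adjusted p of 0.0359, 0.0444 and 0.0461 from limma. *Trib2*, a pseudokinase, rose from 8.97 ± 1.25 to 13.6 ± 0.672 FPKM (SD, n = 3, adjusted p = 0.0336 from limma).

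**Figure D2:**
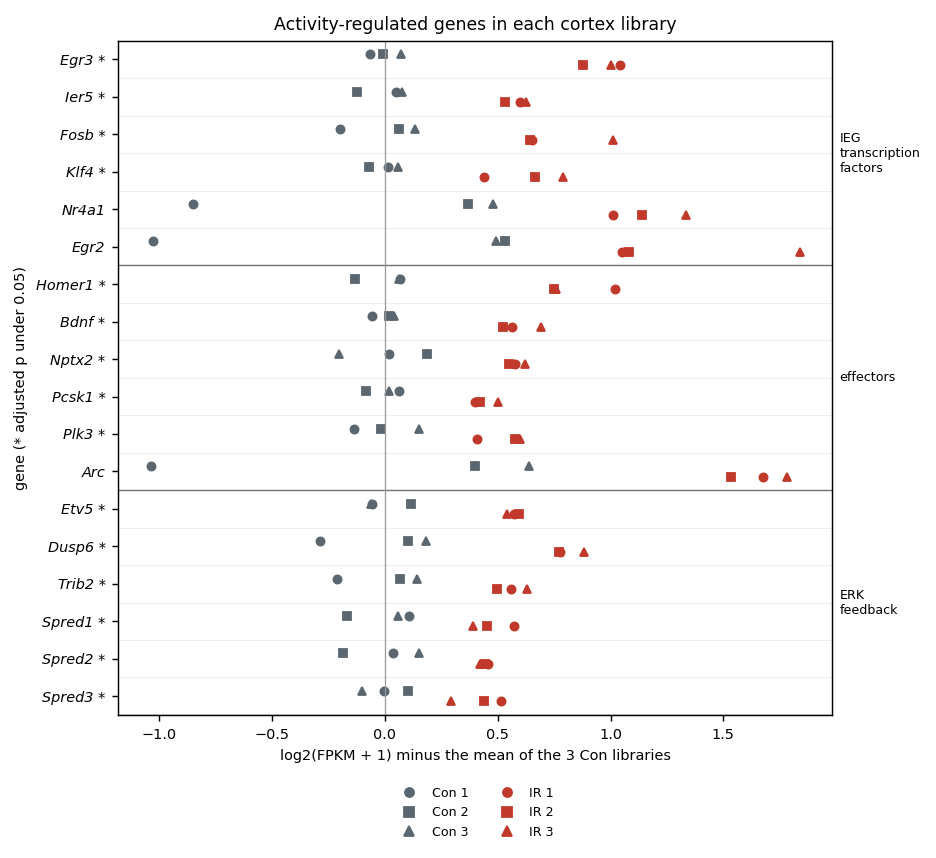
Expression of 18 activity-regulated genes in each cortex library, as log2(FPKM + 1) minus the mean of the 3 Con libraries (x axis). Grey symbols are Con, red symbols IR, and the shape gives the library number. Every IR symbol lies to the right of every Con symbol, and Con 1 lies far to the left in *Nr4a1*, *Egr2* and *Arc*.

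The cAMP response element, to which CREB binds, was looked for in the 250 bases before the RefSeq start of these genes (GRCm38.p6), as TGACGTNA on either strand. Of 15 effectors with a promoter entry 5 held it, of 18 IEG transcription factors 2 and of 15 ERK feedback genes 3, against 2.92% of all 27025 genes with an entry and 4.82% of the tested genes. These 4 called effectors are shown because they rose and hold the letters, each 5′ to 3′ in the direction of the gene with the match in capitals, which for *Bdnf* is on the opposite strand.
Homer1, chr13:93303690-93303719, plus strand: cccgcacaagcTGACGTGAgcggagggtga
Pcsk1, chr13:75089768-75089797, plus strand: ccaggtagatcTGACGTCAagagatggctt
Plk3, chr4:117134077-117134106, minus strand: gatctttcaggTGACGTAAggcggagcaat
Bdnf, chr2:109692387-109692416, plus strand: catatgacagcTCACGTCAaggcagcgtgg
The matches end 48 bases before the start in *Homer1*, 70 in *Pcsk1*, 124 in *Plk3* and 30 in *Bdnf*, which has further starts. *Egr3*, *Ier5* and *Etv5* had no match in this window. A match of letters is a description and not a bound site.

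The clock genes moved in both directions. In the loop itself, 15 genes were tested, of which *Per2* and *Arntl* rose and *Ciart* fell, and the unadjusted p was under 0.05 upward in 7 and downward in 3. *Per2*, a repressor of the loop, was at 5.77, 6.28 and 6.57 FPKM in Con and 11.3, 10.5 and 10.5 FPKM in IR (log2 fold change 0.71, standard error 0.07, adjusted p = 0.004). *Arntl*, which encodes BMAL1, the activator, was at 12.8, 12.9 and 12.2 FPKM in Con and 15.9, 17.0 and 16.9 FPKM in IR (log2 fold change 0.37, adjusted p = 0.0286). *Ciart*, a repressor that binds the activators, was at 13.9, 10.9 and 13.5 FPKM in Con and 6.10, 6.92 and 6.75 FPKM in IR (log2 fold change -0.85, standard error 0.09, adjusted p = 0.00447). In each of these genes the groups were well separated, and *Per2* and *Ciart* were called with every library left out.

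Genes of the clock output also moved in both directions. Of 11 output genes, *Dbp*, *Nr1d1* and *Usp2* fell and *Nfil3* rose. *Dbp*, a bZIP activator driven directly by the loop, was at 51.3, 45.4 and 48.4 FPKM in Con and 24.1, 23.5 and 25.2 FPKM in IR, a fall of 1.95-fold (log2 fold change -0.97, adjusted p = 0.000185). *Nfil3*, a repressor that competes with DBP for its sites, rose from 3.99 ± 0.305 to 6.56 ± 0.420 FPKM (SD, n = 3, adjusted p = 0.0139 from limma). *Nr1d1*, the nuclear receptor REV-ERBα that represses *Arntl*, fell from 70.9 ± 5.11 to 46.8 ± 4.22 FPKM (SD, n = 3, adjusted p = 0.0124 from limma). *Usp2*, a deubiquitinase with a strong rhythm, fell from 34.0 ± 3.22 to 23.4 ± 1.02 FPKM (SD, n = 3, adjusted p = 0.0168 from limma). Further members, given as values and chosen after these were seen, differed less: *Cry1* was at 5.30 to 5.78 FPKM in Con and 7.03 to 8.44 FPKM in IR (adjusted p = 0.0686), and *Per3* at 10.7 to 11.8 FPKM in Con and 9.20 to 10.04 FPKM in IR (adjusted p = 0.168). *Clock*, *Tef* and *Hlf* overlapped between the groups. The hour of tissue collection is not given in the sources used here, and the part of sampling time in these differences was not tested.

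*Ciart* is shown by its promoter because it fell most in the loop and because 3 copies of the E-box CACGTG, which CLOCK and BMAL1 bind, end 110, 52 and 38 bases before its start. The 3 copies are in capitals, each with its neighbouring bases, all on chromosome 3 of GRCm38.p6 and the minus strand.
Ciart copy 1, chr3:95882328-95882355: gcatctagagtCACGTGttgccggtaag
Ciart copy 2, chr3:95882270-95882297: gcagggggaggCACGTGcagaaccgcac
Ciart copy 3, chr3:95882256-95882283: gtgcagaaccgCACGTGtctgggagggg
The E-box was in 4 of 11 loop genes with a promoter entry (*Per1*, *Cry1*, *Ciart* and *Bhlhe41*) and in 1 of 9 output genes (*Tef*), and in 6.86% of all genes and 9.91% of the tested genes. *Per1* and *Cry1* stood higher and *Ciart* and *Bhlhe41* lower in IR, so the genes with the letters did not share a direction.

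The cold-inducible RNA-binding proteins, whose messages rise when body temperature drops, were lower in IR. *Cirbp* was at 68, 73.2 and 65.7 FPKM in Con and 34.7, 45.7 and 45.5 FPKM in IR, and it fell 1.64-fold (log2 fold change -0.71, standard error 0.10, adjusted p = 0.0168). *Rbm3* was at 81.1, 75.7 and 76.7 FPKM in Con and 47.8, 63.8 and 58.0 FPKM in IR (log2 fold change -0.46, adjusted p = 0.0643). Both genes had no overlap between the groups and were lowest in IR 1. No temperature is given in the sources used here.

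**Figure D3:**
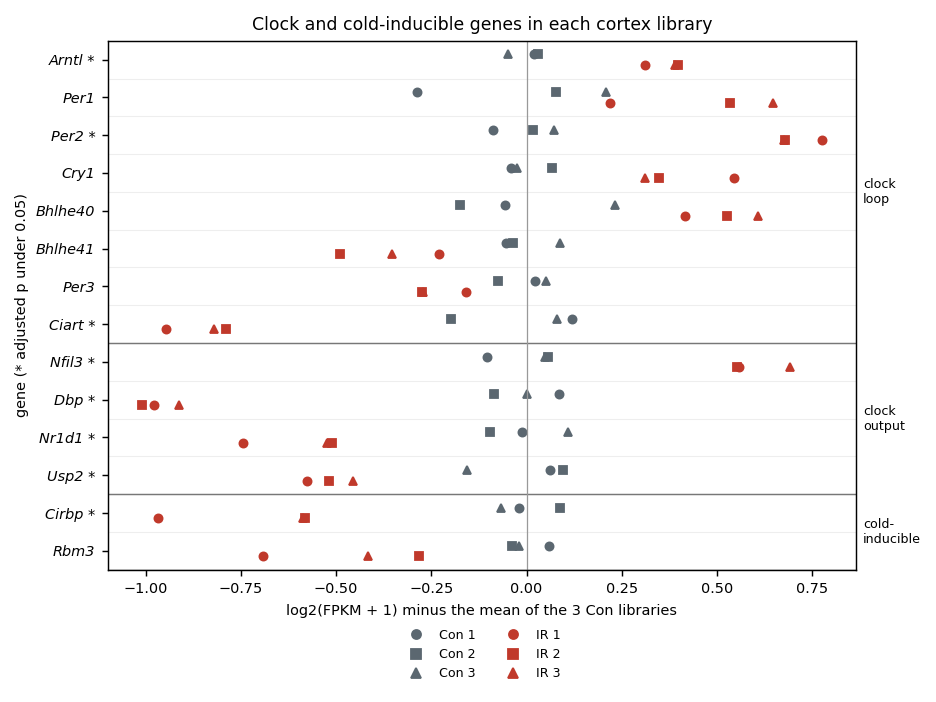
Expression of 14 clock and cold-inducible genes in each cortex library, as log2(FPKM + 1) minus the mean of the 3 Con libraries (x axis). Grey symbols are Con, red symbols IR, and the shape gives the library number. *Per2* and *Nfil3* lie to the right in IR and *Ciart*, *Dbp* and *Cirbp* to the left, and IR 1 is the farthest left in *Cirbp* and *Rbm3*.

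The chaperones of the ER had a higher mean in IR in every member, and none was called. All 15 listed genes were tested, 15 had a higher mean in IR, 13 had every IR library above every Con library, and 12 had an unadjusted p under 0.05. Their median log2 fold change was 0.29. *Hspa5*, which encodes BiP, the main Hsp70 of the ER, was at 70.8, 77.0 and 75.8 FPKM in Con and 146, 100 and 107 FPKM in IR (log2 fold change 0.64, standard error 0.13, adjusted p = 0.0778). *Pdia4*, a disulfide isomerase, was at 11.2, 11.3 and 12.8 FPKM in Con and 23.8, 16.4 and 16.1 FPKM in IR (log2 fold change 0.61, adjusted p = 0.093). IR 1 was the highest of the 6 libraries in 14 of the 15 genes. The summed level of the 15 genes was 642, 683 and 659 FPKM in Con and 921, 747 and 772 FPKM in IR, so the other IR libraries were also above Con. Without IR 1, 8 of the 15 had an unadjusted p under 0.05 and the median log2 fold change was 0.20. A further 13 tested genes covered transcription factors of the same response, targets of these and the degradation arm. Of these 13, 2 had an unadjusted p under 0.05 upward and 1 downward, and none was called. *Xbp1*, the spliced transcription factor of the response, was at 28.1, 29.5 and 32.5 FPKM in Con and 45.2, 35.3 and 37.3 FPKM in IR (adjusted p = 0.119), and *Asns*, a target of the ATF4 arm, was at 41.0 to 43.1 FPKM in Con and 36 to 38.8 FPKM in IR (adjusted p = 0.186).

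The ER stress response element, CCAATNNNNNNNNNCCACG, was present on either strand in the 250 bases before the start in 7 of the 13 ER chaperone genes with a promoter entry. It was present in 0.130% of the 27025 genes with an entry and in 16 of the 10646 tested ones. The 7 genes are shown because their levels lay in the same direction in IR and because the element is rare elsewhere. Each is written 5′ to 3′ in the direction of the gene, with the element in capitals, and in *Calr*, *Creld2* and the second copy of *Hsp90b1* it reads on the opposite strand.
Hspa5, chr2:34772020-34772048, plus strand: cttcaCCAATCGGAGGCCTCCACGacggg
Hsp90b1 copy 1, chr10:86705633-86705661, minus strand: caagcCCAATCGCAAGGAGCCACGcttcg
Hsp90b1 copy 2, chr10:86705528-86705556, minus strand: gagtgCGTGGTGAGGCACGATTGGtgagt
Calr, chr8:84847070-84847098, minus strand: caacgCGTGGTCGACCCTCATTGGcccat
Canx, chr11:50325795-50325823, minus strand: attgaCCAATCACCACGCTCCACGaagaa
Pdia6, chr12:17266486-17266514, plus strand: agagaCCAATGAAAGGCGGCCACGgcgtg
Dnajc3, chr14:118937822-118937850, plus strand: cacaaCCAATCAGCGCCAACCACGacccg
Creld2, chr15:88819515-88819543, plus strand: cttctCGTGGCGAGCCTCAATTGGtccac
The element of *Hspa5* ends 46 bases before its start. Among the 7, *Canx* had a log2 fold change of 0.02 and *Pdia6* of 0.39. *Sdf2l1* and *Manf*, at log2 fold changes of 0.72 and 0.40, had no exact match in this window.

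Chaperones of the cytosol and mitochondria were higher in IR in 22 of 23 members, of which 2 rose and 11 had an unadjusted p under 0.05. *Dnajb5*, an Hsp40 co-chaperone of muscle and brain, was at 40.1, 45.9 and 46.7 FPKM in Con and 71.4, 67.8 and 73.3 FPKM in IR (log2 fold change 0.67, standard error 0.07, adjusted p = 0.004). *Cryab*, the small heat shock protein αB-crystallin, made by oligodendrocytes and astrocytes, was at 62.1, 56.5 and 58.5 FPKM in Con and 79.6, 80.5 and 72.0 FPKM in IR (log2 fold change 0.38, adjusted p = 0.0286). These genes were raised alike in the 3 IR libraries. The classical heat shock genes, chosen for description after their values were seen, differed from that. *Hspb1* was at 6.51, 7.61 and 7.65 FPKM in Con and 14.6, 8.91 and 8.55 FPKM in IR (adjusted p = 0.29), and *Hspa1b*, which shares nearly all its sequence with *Hspa1a* so that reads may be split between them, at 1.87 to 2.18 FPKM in Con and 4.52, 2.94 and 2.95 FPKM in IR (adjusted p = 0.115). IR 1 was the highest of the 6 libraries in 17 of the 23 genes. The count of 11 was 7 without IR 1 and 6 without Con 1. The heat shock letters GAANNTTC were in 7 of 19 of these promoters, *Hspa1b* and *Hspb1* among them, against 7.73% of all genes, and *Dnajb5* and *Cryab* had no match.

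**Figure D4:**
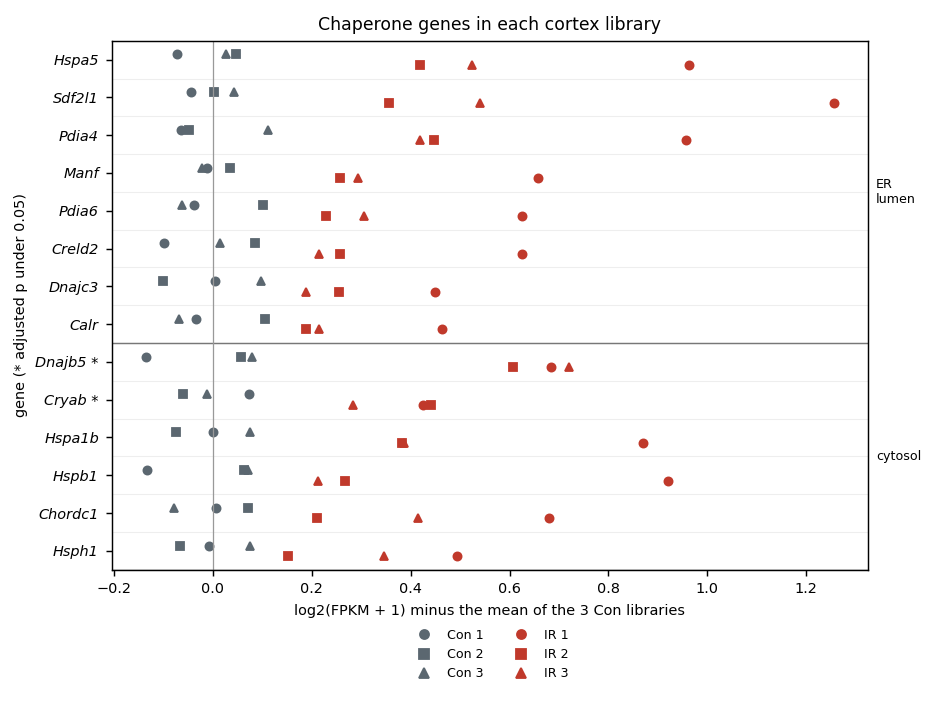
Expression of 14 chaperone genes in each cortex library, as log2(FPKM + 1) minus the mean of the 3 Con libraries (x axis). Grey symbols are Con, red symbols IR, and the shape gives the library number. IR 1 is the farthest right in the ER genes and in *Hspa1b* and *Hspb1*, whereas the IR libraries lie close together in *Dnajb5* and *Cryab*.

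The p53 targets held 2 called genes. Of 22 tested targets, *Cdkn1a* and *Plk3* rose, and 6 had an unadjusted p under 0.05 upward and 1 downward. The median log2 fold change of the 22 was 0.08. *Plk3*, counted above as an effector, *Plk2* and *Btg2* are also in the activity-regulated lists. The upward count of 6 was 4 without IR 1 and 7 without Con 1. The downward count of 1 was 2 without Con 1, Con 3 or IR 3 and 0 without IR 1. *Cdkn1a*, which encodes p21, was at 5.67, 6.32 and 6.03 FPKM in Con and 14.8, 12.7 and 16.8 FPKM in IR, and rose 2.24-fold (log2 fold change 1.16, standard error 0.09, adjusted p = 0.000947). The pair of *Mdm2* and *Ccng1*, which restrain p53, chosen for description after their values were seen, had log2 fold changes of 0.17 and 0.35 (adjusted p = 0.24 and 0.20). *Bax*, *Zmat3* and *Trp53inp1*, chosen in the same way, overlapped between the groups. Of 26 tested genes of DNA repair, 21 had a lower mean in IR, 4 an unadjusted p under 0.05 downward (1 without Con 1 or without IR 1, 2 without Con 3 or without IR 3) and none upward, and none was called. *Ogg1*, the glycosylase that removes oxidized guanine, was at 4.28, 3.72 and 3.68 FPKM in Con and 2.92, 2.82 and 2.62 FPKM in IR (log2 fold change -0.37, adjusted p = 0.0997). *Lig1*, the ligase of replication and excision repair, was at 4.36 to 5.25 FPKM in Con and 3.65 to 4.41 FPKM in IR. Of 4 tested genes of senescence none had an unadjusted p under 0.05, and of 10 tested proliferation genes *Bub1b* was higher and *Mcm6* lower at that level (adjusted p = 0.294 and 0.211). The upward proliferation count of 1 was 0 without Con 2, Con 3, IR 1 or IR 3.

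Metabolic and hormone-regulated lists held 3 called genes. *P4ha1*, a prolyl hydroxylase of collagen, was at 7.13, 8.57 and 8.42 FPKM in Con and 14.3, 11.9 and 13.3 FPKM in IR (log2 fold change 0.65, adjusted p = 0.0135). *Pfkfb3*, whose product speeds glycolysis, was at 5.27, 4.15 and 5.56 FPKM in Con and 9.80, 8.58 and 7.72 FPKM in IR (log2 fold change 0.70, adjusted p = 0.0286). These were the called members among 15 genes of hypoxia and glycolysis, whose median log2 fold change was -0.03, and the glycolytic enzymes *Pgk1*, *Ldha*, *Aldoa* and *Eno1*, chosen after their values were seen, overlapped between the groups. Of 16 targets of the glucocorticoid receptor, *Mt2*, a metallothionein, fell from 187 ± 2.73 to 151 ± 1.82 FPKM (SD, n = 3, adjusted p = 0.0218 from limma), and the other 15 had an unadjusted p of 0.05 or more. Without IR 1, 3 of the 16 had an unadjusted p under 0.05 upward and without IR 2, 1 did, and without IR 3, 2 did downward. Of 22 cholesterol synthesis genes, 16 had a lower mean in IR, 5 an unadjusted p under 0.05 downward and 1 upward, and none was called. *Insig1*, which holds the pathway back, was at 33.2 to 36 FPKM in Con and 24.8 to 31.2 FPKM in IR (adjusted p = 0.165). The count of 5 was 1 without IR 1, 2 without Con 3 or without IR 2 and 7 without IR 3. Of 20 antioxidant genes, *Txnrd1* had an unadjusted p under 0.05, with an adjusted p of 0.199, and the count of 1 was 2 without Con 2 or IR 3.

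Most markers of homeostatic microglia had a lower mean in IR. In bulk tissue, fewer cells of a type and less RNA per cell cannot be told apart. All 21 markers were tested, 19 had a lower mean in IR and 2 a higher one, 9 had every IR library below every Con library, 8 had an unadjusted p under 0.05 downward, 1 fell, and the median log2 fold change was -0.19 (-0.12 without IR 1 and -0.32 without IR 2). *Trem2*, a lipid receptor of microglia, was at 8.18, 9.06 and 8.93 FPKM in Con and 6.41, 6.45 and 6.48 FPKM in IR (log2 fold change -0.38, standard error 0.07, adjusted p = 0.0396), and it was called only with all 6 libraries. *Cx3cr1*, the fractalkine receptor, was at 15, 14.4 and 13.4 FPKM in Con and 10.5, 12.8 and 9.68 FPKM in IR (adjusted p = 0.135). The IR libraries did not behave alike in these markers. IR 2 was the highest of the 3 IR libraries in 18 of the 21, and the summed level was 247, 237 and 228 FPKM in Con and 182, 228 and 184 FPKM in IR 1 to 3. *Csf1r*, chosen for description after its values were seen, was at 21.1, 20.4 and 19.8 FPKM in Con and at 8.84, 18.0 and 8.89 FPKM in IR (log2 fold change -0.80, adjusted p = 0.276). Without IR 2, the library with choroid plexus RNA, the log2 fold change of *Csf1r* was -1.12 (adjusted p = 0.000559) and 11 of the 21 markers had an unadjusted p under 0.05. IR 2 was the IR library nearest to Con in *Csf1r*, and leaving out any of the other 5 libraries gave no call of this gene. The same count was 5 without IR 1 and 5 without IR 3. The part of the choroid plexus RNA in the levels of IR 2 was not tested. *Tmem119* and *P2ry12*, the usual defining markers, overlapped between the groups at log2 fold changes of -0.11 and -0.17.

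Genes of activated microglia, of immune signals and of infiltrating cells were described by further lists. Of 13 complement and phagocytosis genes, *C1qc* had an unadjusted p under 0.05, at 27.1 to 31.1 FPKM in Con and 24.7 to 26.4 FPKM in IR (adjusted p = 0.29). The count of 1 was 4 without IR 2, 2 without Con 3 and 0 without Con 1, IR 1 or IR 3. The median log2 fold change was -0.08 with all libraries, -0.15 without IR 2 and -0.02 without IR 1. None of 11 tested genes of disease-associated microglia, of 16 listed, reached that level, and *Apoe* was at 989 to 1321 FPKM in Con and 1093 to 1142 FPKM in IR. Of 8 T cell genes none passed the filter, and *Cd3e* was at or below 0.0900 FPKM in every library. *Cx3cl1*, the neuronal ligand of Cx3cr1, was at 221, 217 and 218 FPKM in Con and 292, 272 and 269 FPKM in IR (log2 fold change 0.34, standard error 0.05, adjusted p = 0.0218), so ligand and receptor lay in opposite directions. *Ccl12*, a monocyte chemokine, was at 0.345, 0 and 0.170 FPKM in Con and 0.847, 1.49 and 1.83 FPKM in IR (log2 fold change 1.02, adjusted p = 0.0336), and it passed the filter only through the IR libraries. Of 20 interferon response genes, 7 had an unadjusted p under 0.05 upward, none downward and none was called, with *Isg15* at 0.912 to 2.15 FPKM in Con and 2.55 to 3.23 FPKM in IR (adjusted p = 0.135) and *Irf9* at 3.16 to 3.78 and 4.40 to 5.11 FPKM (adjusted p = 0.138). The count of 7 was 4 without Con 3 and 4 without IR 2. Con 1 was the highest of the 6 libraries in 8 of the 20 interferon genes. Their summed level was 83.1, 69.1 and 69.5 FPKM in Con and 86.6, 84.6 and 82.5 FPKM in IR, so Con 1 lay among the IR libraries.

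Among other cell types, most markers of myelinating oligodendrocytes and of endothelium had a higher mean in IR and all fibroblast markers a lower one, and none of these genes was called. Of 19 genes of myelinating oligodendrocytes, 18 had a higher mean in IR and 6 an unadjusted p under 0.05, with a median log2 fold change of 0.19. *Ermn*, a myelin protein bound to actin, was at 10.2, 11.3 and 9.32 FPKM in Con and 15.2, 14.4 and 12.7 FPKM in IR (log2 fold change 0.42, adjusted p = 0.0629), and *Mbp*, myelin basic protein, at 627 to 767 FPKM in Con and 811 to 971 FPKM in IR (adjusted p = 0.21). IR 2 was the highest library in 14 of the 19 and Con 3 the lowest in 14. The count of 6 was 3 without IR 2 and 11 without IR 3, and the median was 0.10 without IR 2. Of 11 genes of oligodendrocyte precursors, *Olig2* had an unadjusted p under 0.05, and *Pdgfra* and *Cspg4* overlapped between the groups. The count of 1 was 3 without Con 2, 2 without IR 1 and 0 without Con 3 or IR 2.

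Of 23 endothelial genes, 7 had an unadjusted p under 0.05 upward and none downward, and the count was 4 without IR 2, which was the highest library in 14 of them. *Cldn5*, the tight junction protein of the blood-brain barrier, was at 29.2, 27.0 and 21.0 FPKM in Con and 36.9, 38.0 and 31.9 FPKM in IR (log2 fold change 0.46, adjusted p = 0.121). *Eng*, a receptor of the TGF-β family on vessels, was at 6.16 to 6.68 FPKM in Con and 7.77 to 8.78 FPKM in IR (adjusted p = 0.089). None of 12 mural cell genes reached an unadjusted p under 0.05, and 7 of them had a lower mean in IR. All 16 fibroblast genes had a lower mean in IR and 3 an unadjusted p under 0.05, with a median log2 fold change of -0.22. *Mgp*, matrix Gla protein, was at 22.2, 23.6 and 24.3 FPKM in Con and 18.4, 19.4 and 18.6 FPKM in IR (log2 fold change -0.30, adjusted p = 0.0518). IR 1 was the lowest library in 14 of the 16 and IR 2 the highest in 6, the summed level of IR 2, 119 FPKM, lay within that of Con, 111 to 127 FPKM, and 8 genes had an unadjusted p under 0.05 without IR 2. Without IR 1 the median was -0.06. How much meninges each dissection held was not tested.

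**Figure D5:**
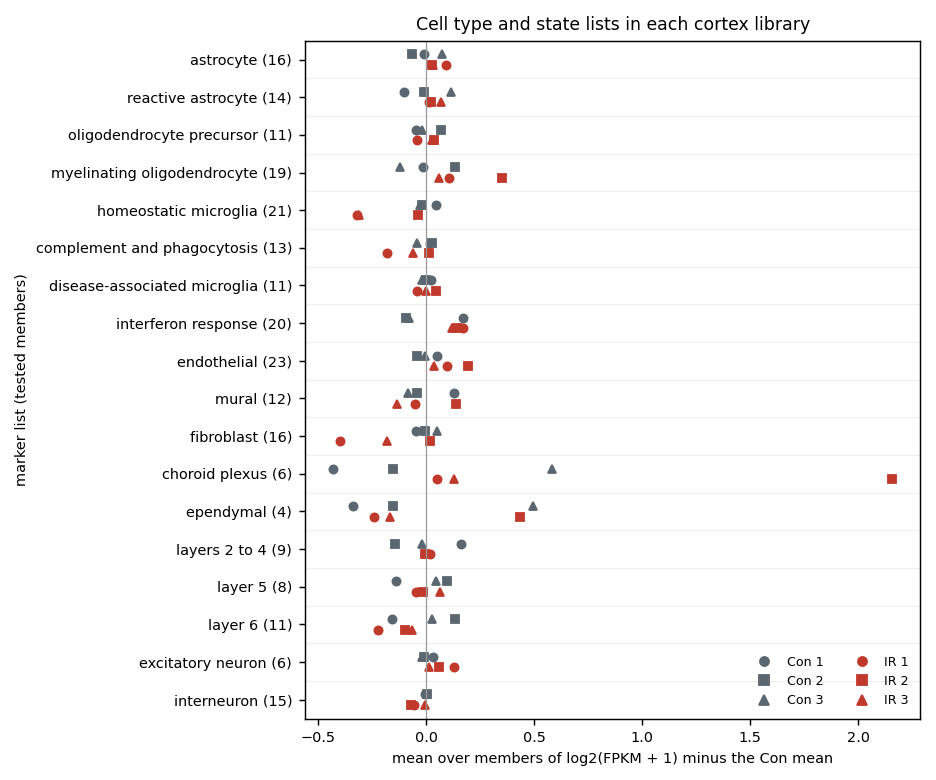
Mean over the tested members of 18 marker lists of log2(FPKM + 1) minus the Con mean (x axis), for each cortex library. Grey symbols are Con, red symbols IR, and the shape gives the library number. IR 2 stands apart in the choroid plexus list at 2.16, and in the homeostatic microglia list IR 1 and IR 3 lie at -0.32 and -0.31, where IR 2 lies at -0.04, next to the lowest Con library at -0.03.

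No gene of the astrocyte and neuron lists was called. Of 16 astrocyte genes, 4 had an unadjusted p under 0.05 upward, among them *Gjb6*, the gap junction protein connexin 30, at 21.0 to 22 FPKM in Con and 25.1 to 26.8 FPKM in IR (log2 fold change 0.26, adjusted p = 0.0719), and *Glul*, glutamine synthetase, at 540 to 594 and 622 to 656 FPKM (adjusted p = 0.159). *Gfap*, the marker of reactive astrocytes, overlapped at 40.2 to 72.6 FPKM in Con and 39.1 to 57.1 FPKM in IR. Of 11 genes of layer 6, 3 had an unadjusted p under 0.05 downward, with *Cplx3*, a complexin of subplate neurons, at 6.18 to 7.88 FPKM in Con and 5.04 to 5.91 FPKM in IR (adjusted p = 0.211). *Ntsr1*, of corticothalamic neurons, was at 2.91, 4.26 and 4.47 FPKM in Con and 1.98, 2.04 and 3.05 FPKM in IR (adjusted p = 0.181). The summed level of the layer 6 genes overlapped, at 171, 225 and 190 FPKM in Con and 168, 175 and 184 FPKM in IR. The layer 6 count of 3 was 4 without Con 1 and 2 without IR 1 or IR 2. Receptors and channels had no called gene. Of 27 glutamate receptor genes 1 had an unadjusted p under 0.05 upward and 3 downward, of 14 GABA receptor genes 1 downward, and of 28 potassium channel genes 4 upward. The glutamate receptor count of 3 was 5 without Con 1 and 1 without IR 1, the GABA receptor count of 1 was 2 without Con 2 and 0 without Con 3, and the potassium channel count of 4 was 2 without Con 2, IR 1 or IR 2. *Grm2*, a presynaptic metabotropic receptor, was at 22.4, 22.5 and 25.7 FPKM in Con and 16.9, 17.8 and 20.5 FPKM in IR (log2 fold change -0.34, adjusted p = 0.11). Among 18 neuropeptide genes *Crh* and *Penk* had an unadjusted p under 0.05 upward, and in interneurons *Reln* and *Adarb2* downward, with none called. The neuropeptide count of 2 was 1 without Con 2 or IR 1 and 3 without Con 1, and the interneuron count of 2 was 1 without Con 3, IR 1 or IR 2 and 3 without Con 2.

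Lists of the ribosome and the respiratory chain held no called gene. Of 74 nuclear genes of the respiratory chain, *Ndufs3* had an unadjusted p under 0.05. The median log2 fold change was -0.03 (0.03 without Con 2 and -0.06 without Con 3). Of 78 ribosomal protein genes of the cytosol, *Rps27l*, an inducible paralog, had one, at 19.1 to 25.0 FPKM in Con and 26.6 to 28.6 FPKM in IR (adjusted p = 0.116). Of 76 mitochondrial ribosomal genes, 5 were higher and 4 lower at that level, with a median of -0.01 (-0.03 without IR 1 and 0.02 without IR 2). These counts moved with single libraries. Without Con 2, 9 genes of the respiratory chain, 8 cytosolic and 8 mitochondrial ribosomal genes had an unadjusted p under 0.05 upward, against 0, 1 and 5 with all libraries. For the mitochondrial ribosome, the upward count was 2 without Con 3 or IR 3 and 3 without IR 1 or IR 2, and the downward count was 11 without Con 3, 1 without Con 1, IR 2 or IR 3 and 0 without IR 1.

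Most of the called genes, 70 of 102, were in no list. The 10 largest rises among all called genes included *Serinc2*, *Tnfrsf25*, *Dok3* and *Gpr3*. *Tnfrsf25*, a death receptor of the TNF receptor family, was at 1.46, 2.04 and 2.52 FPKM in Con and 6.12, 3.65 and 5.24 FPKM in IR (log2 fold change 0.99, adjusted p = 0.0413). *Dok3*, an adaptor of tyrosine kinase signalling, was at 1.99, 3.01 and 2.48 FPKM in Con and 6.81, 4.83 and 5.22 FPKM in IR (log2 fold change 0.92, adjusted p = 0.0209). *Gpr3*, a receptor that raises cAMP without a ligand, was at 2.15, 2.88 and 3.62 FPKM in Con and 5.15, 5.37 and 5.61 FPKM in IR (log2 fold change 0.73, adjusted p = 0.0397). *Serinc2*, of the serine incorporator family, was at 2.82, 2.09 and 2.02 FPKM in Con and 6.73, 6.34 and 4.44 FPKM in IR. It rose 2.05-fold on the log2(FPKM + 1) scale. The levels of these 4 genes were between 1.46 and 6.81 FPKM, and none was called with every library left out.

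The genes outside the lists that were called with every library left out were more abundant, and they were chosen for description after their values were seen. *Fmnl1*, a formin that builds actin filaments, was at 32.2, 30.3 and 31.3 FPKM in Con and 54.8, 49.9 and 51.6 FPKM in IR, the third smallest adjusted p of all genes (log2 fold change 0.72, standard error 0.06, adjusted p = 0.000775). *Sbk1*, a kinase of the brain with an SH3-binding domain, rose from 17.9 ± 1.20 to 27.8 ± 1.41 FPKM (SD, n = 3, adjusted p = 0.00447 from limma). *Sgsm1*, a modulator of small G proteins, rose from 21.9 ± 1.01 to 33.0 ± 1.40 FPKM (SD, n = 3, adjusted p = 0.004 from limma), and *Galnt9*, a glycosyltransferase of the brain, from 29.0 ± 1.84 to 44.9 ± 4.29 FPKM (SD, n = 3, adjusted p = 0.0102 from limma). A further 4 genes that rose, also chosen after their values were seen, were not called with every library left out. *Crem*, a cAMP-responsive factor related to CREB, rose from 5.64 ± 0.505 to 8.30 ± 0.461 FPKM (SD, n = 3, adjusted p = 0.0321 from limma), *Camk1g*, a calmodulin kinase, from 11.2 ± 0.461 to 16.0 ± 1.01 FPKM (SD, n = 3, adjusted p = 0.0142 from limma), and *Mapk11*, p38β, from 21.2 ± 1.74 to 30.9 ± 1.28 FPKM (SD, n = 3, adjusted p = 0.0124 from limma). *Ccnd1*, cyclin D1, rose from 10.6 ± 1.15 to 14.8 ± 1.06 FPKM (SD, n = 3, adjusted p = 0.0466 from limma).

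Among the genes that fell outside the lists, *Pla2g4e*, a cytosolic phospholipase A2, was at 5.58, 4.80 and 5.59 FPKM in Con and 2.43, 3.27 and 3.05 FPKM in IR (log2 fold change -0.69, adjusted p = 0.0206). The RNAs *0610040B10Rik* and *Etaa1os* had log2 fold changes of -0.84 and -0.83 (adjusted p = 0.0353 and 0.0423). *Etaa1os* is named as the opposite strand of *Etaa1*, and although the library kit marked strand, whether the counting used it is not given in the sources used here, so reads of the pair may not be told apart. *D630023F18Rik*, *Fbxo36* and *Gm14005* fell by 0.58, 0.56 and 0.54 on the log2 scale. *Gm14005* passed the filter only through the Con libraries, where it was at 0.595 to 0.759 FPKM. *Rab34*, a small GTPase of cilia, and *Hmgb3*, a chromatin protein, were chosen after their values were seen. *Rab34* fell from 10.4 ± 0.0566 to 6.99 ± 0.367 FPKM (SD, n = 3, adjusted p = 0.0104 from limma) and *Hmgb3* from 18.3 ± 0.766 to 12.9 ± 0.545 FPKM (SD, n = 3, adjusted p = 0.0109 from limma). Both pairs of groups were separated by a wide gap.

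The hippocampus of the same study, with 3 Con and 3 IR libraries of its own, was used to ask where the response of the cortex differed. A test of the difference of the effects was past the threshold in 12 of 14459 genes (0.083%), 11 of them called in the cortex. All 11 had the larger change in the cortex, which a call there makes likely. *Egr3* was at 34.2 ± 4.24 FPKM in Con and 35.2 ± 2.21 FPKM in IR of the hippocampus (SD, n = 3), where its log2 fold change was 0.05. *Homer1* was at 22.2 ± 1.67 and 22.7 ± 1.08 FPKM there, and *Nptx2* at 13.1 ± 0.794 and 11.1 ± 0.371 FPKM (SD, n = 3). The count of 12 rested on single libraries: it was 0 without cortex Con 1, IR 1, IR 2 or IR 3 and without hippocampus IR 1 or IR 2, 1 without cortex Con 3 or hippocampus Con 2, 6 without cortex Con 2, 7 without hippocampus Con 1 and 487 without hippocampus Con 3. *Cdkn1a*, *Dbp* and *Cirbp* had log2 fold changes of 1.20, -0.80 and -1.10 in the hippocampus, and their difference between the tissues was not past the threshold (adjusted p = 0.937, 0.621 and 0.677 from the interaction in limma), which does not show that they were equal. The value columns of the tissues carry different endings whose meaning is not given in the sources used here.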

How the data were processed

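RNA of the cortex and hippocampus was sequenced, 3 Con and 3 IR libraries each. The labels name Trizol and total RNA and the paper's methods an RNeasy Lipid kit with poly(A) selection. The authors trimmed reads with FASTX_Trimmer and BBMap, aligned them with TopHat (genome mm10 in the submitters' processing notes) and estimated FPKM with Cufflinks, with a geometric normalization. The deposited FPKM values were used as they are, 23183 gene symbols per library. The annotation is not given in the sources used here. Depth in reads is unknown, so no counting interval is given.

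Libraries were grouped by label. Genes that reached 0.5 FPKM in 3 or more of the 6 cortex libraries were fitted as log2(FPKM + 1) with limma 3.58.1 in R 4.3.3 (trend, robust prior, two-sided, Benjamini-Hochberg over all genes tested), and this gave every adjusted p in the text. "Called", "rose" and "fell" mean an adjusted p under 0.05. Fold changes are on the log2(FPKM + 1) scale, which understates those of low genes. The smallest p an exact permutation of 3 against 3 libraries allows is 0.1. The fit was tested on simulated data. The interaction of irradiation and tissue used all 12 libraries.

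Members and gene lists were chosen with earlier results of these data known, so lists are described by counts and medians without a test. Genes named are called list members, the 2 of smallest p in lists with fewer than 2 called members, the first 3 cell type markers of a list, and the 10 largest changes in each direction among called genes. Every other gene named was chosen after its values were seen, except those named for a promoter match or for differing between the tissues. Same-numbered Con and IR libraries had correlations of their deviations of 0.108, -0.109 and -0.040. These cannot settle whether the number pairs them, and the sources used here do not say, so the main fit has no block.

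Promoter letters came from RefSeq (GRCm38.p6), with no genome sequence at hand. Alternatives were no filter, at least 1 FPKM in all 6 libraries, a pseudocount of 0.1, quantile and median-ratio scaling, limma without trend or robust prior, the library number as a block, all 12 libraries in 1 fit, and leaving out each library. Plots used Python 3.11.15 and matplotlib 3.10.9. Behavior and qRT-PCR were not analysed here.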

Additional observations from a re-analysis of the deposited data

Results flagged for a closer look

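The effect of irradiation differed between the cortex and the hippocampus, by the interaction term of limma over all 12 libraries, in 12 genes. The count was 0 with the library number as a block, 0 without the trend and robust prior, and 0 without any of 6 single libraries. Same-numbered cortex and hippocampus libraries had correlations of their deviations of -0.06 to 0.17, so the numbers were not taken to pair the tissues. The log2 fold change in the cortex minus that in the hippocampus was 0.9282 for *Egr3*, 0.8083 for *Homer1*, 0.8016 for *Nptx2*, 0.7404 for *Bdnf*, 0.7332 for *Ier5* and 0.6549 for *Etv5*. Among genes outside the activity-regulated lists it was 0.7729 for *Galnt9*, 0.6947 for *AI414108*, 0.6154 for *Ephb3* and 0.5529 for *Synj2*. It was negative for *Mycl*, a MYC family factor, at -0.7295, and for *Il34*, a ligand of Csf1r, at -0.5042. The adjusted p of the interaction lay between 0.0292 and 0.0359 in all 12. In the cortex *Mycl* was at 3.69 ± 0.321 FPKM in Con and fell to 2.40 ± 0.0556 FPKM in IR (SD, n = 3, adjusted p = 0.0477 from limma), and it was at 12 ± 0.707 and 14.7 ± 0.468 FPKM in Con and IR of the hippocampus. *Il34* was at 26.2 ± 0.848 FPKM in Con and 26.4 ± 0.853 FPKM in IR of the cortex (SD, n = 3), and its log2 fold change in the hippocampus was 0.51.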

How the results depend on the processing

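The 102 called genes became 24 with no filter on low values and 22 without the trend and robust prior, and 17 to 77 when 1 library was left out. With the library number as a block, 71 genes were called, 50 of them among the 102. The correlations of same-numbered libraries did not share a sign, and not every library correlated best with its own number. These correlations cannot settle whether the numbers pair the libraries, and the sources used here do not say. The called list members, 32, became 11 with no filter and 11 without the trend and robust prior, and 12 to 28 with 1 library left out. The genes at an unadjusted p under 0.05, 1983, ranged from 1227 to 2119 with 1 library left out. The genes at a fold of 1.5 and an unadjusted p under 0.05, 68, became 234 with a pseudocount of 0.1, which enlarges the fold of low genes. The 12 genes that differed between the tissues became 0 without the trend and robust prior and 0 with the replicate block, and 0 to 487 with 1 library left out. The cause of these changes was not tested, apart from the fewer libraries in a fit. A stricter filter, the scalings and the fit of all 12 libraries gave 107, 98, 88 and 82 called genes (at least 1 FPKM, median-ratio, quantile and all 12 libraries). No called gene changed direction under an alternative that tested it. Without read numbers, the precision of genes near the filter cannot be set by counting, and 3 libraries per group limit all results.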

Other observations

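Several lists with few tested genes are given as counts only. Of 6 tested neuroblast genes, 1 had an unadjusted p under 0.05 downward, and *Dcx*, doublecortin of migrating young neurons, had a log2 fold change of -0.30 (adjusted p = 0.202). Of 10 class I antigen presentation genes 1 had an unadjusted p under 0.05 downward, and of 7 border macrophage genes 1 upward and 2 downward, of which *Cbr2* passed the filter only through the Con libraries. None of 9 genes of layers 2 to 4 and none of 4 ependymal genes reached that level. Of 14 tested clustered histone genes, whose messages mostly lack a poly(A) tail, 2 had an unadjusted p under 0.05 upward, and none of 6 tested snoRNAs did. None of these genes was called, and each of the counts moved by at most 2 genes when 1 library was left out.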
